A study of Mus musculus with 6 samples.

Results

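The G1 cell cycle control genes are 10 genes of the step at which a mammalian cell commits to DNA replication: the D-type cyclins Ccnd1, Ccnd2 and Ccnd3, the kinases Cdk4 and Cdk6, the kinase inhibitors Cdkn1a, Cdkn1b and Cdkn1c, the transcription factor gene Myc and the p53 antagonist Mdm2. Described here are the chromatin immunoprecipitation (ChIP) peaks that the authors' annotation assigns to one of these genes as the nearest transcription start site. Of the 22188 peaks in the table of all peaks, 21 met this rule, and they lay at 8 of the 10 genes. The peaks were taken by gene name, not by height or score. The 10 genes themselves were chosen with earlier results of these data known. Cdk6 and Mdm2 had 5 peaks each, Myc had 4, Ccnd1 had 3, and Ccnd3, Cdk4, Cdkn1a and Cdkn1b had 1 each. Ccnd2 and Cdkn1c had none in the table and none in any of the 6 replicate peak lists.

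KLF3 (Krüppel-like factor 3) is a zinc finger transcription factor that binds CACCC-type DNA and recruits the corepressor CtBP through its N-terminal domain. The study asked how far this N-terminal domain, and its contact with CtBP, sets where the protein sits in the genome. All cells were embryonic fibroblasts (MEFs) from Klf3-/- mice on a C57BL/6 background, with no KLF3 of their own, and each line was a stable clone that carried an MSCV retrovirus for a V5-tagged protein. KLF3-V5 is the full-length protein, ΔDL carries 2 altered residues in the motif that touches CtBP, and DBD lacks the N-terminal domain but keeps a nuclear localization signal and the zinc fingers. A clone and its construct cannot be told apart, since each construct is represented by a single clonal line. The immunoprecipitation used an anti-V5 antibody, with 2 replicates per construct and a paired input for each.

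Heights and scores are given. The height of a peak is the number of tags (the aligned reads that were counted) within 400 bp, taken from both replicates together and scaled to 100 M tags. The score of a peak is the number of tags in the peak in 1 replicate, scaled in the same way, and it exists only where a peak was called in that replicate. Behind the heights stand 23.3 M KLF3 tags, 11.8 M ΔDL tags and 16 M DBD tags, so that 1 tag is worth 4.29, 8.45 and 6.23 units of height. The paper reports more mapped reads than tags for every immunoprecipitated library, and what sets them apart was not tested. The replicates were unequal in tags. KLF3 had 5.46 M and 18.1 M tags in replicates 1 and 2, ΔDL had 1.77 M and 10.2 M, and DBD had 7.81 M and 8.38 M. The combined heights of KLF3 and ΔDL therefore lean on replicate 2, and the list of ΔDL replicate 1 holds no score below 227. Intervals given with a height difference are exact 95% intervals for counting error only. They compare these libraries, not the conditions.

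In G1, D-type cyclins bind Cdk4 or Cdk6, and the active kinases phosphorylate the retinoblastoma protein, which releases E2F factors that switch on replication genes. Cdkn1a (p21), Cdkn1b (p27) and Cdkn1c (p57) hold cyclin-kinase complexes in check, and Cdkn1a is a classical target of p53. Myc drives growth and entry into the cycle, and Mdm2 marks p53 for degradation and is itself switched on by p53.

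The sequences below are shown because they hold the 4 promoter peaks of the genes, the peaks with the lowest and highest difference from KLF3 in each mutant, the highest peak of the D-type cyclins (Ccnd3) and the highest peak of Myc. Each is the mm9 reference around the peak centre, on the plus strand from 5′ to 3′. Capitals mark matches to the CACCC-type word ACACCC, to the word CCACCC, to the word ACGCCC or to the word CCGCCC on either strand, so that a match on the other strand appears as its reverse complement. Where a transcribed untranslated region or exon falls in the window, only 26 bases around the match nearest the centre are given.
Cdk4 promoter, chr10:126500376-126500475: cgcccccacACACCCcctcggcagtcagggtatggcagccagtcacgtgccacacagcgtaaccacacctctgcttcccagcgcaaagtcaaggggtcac
Cdk6 upstream, chr5:3342767-3342866: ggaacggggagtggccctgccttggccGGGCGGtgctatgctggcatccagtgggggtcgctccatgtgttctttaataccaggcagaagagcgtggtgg
Cdkn1a promoter, chr17:29230485-29230584: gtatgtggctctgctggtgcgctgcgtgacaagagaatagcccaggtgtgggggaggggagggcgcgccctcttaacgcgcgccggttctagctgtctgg
Cdkn1b promoter, chr6:134870292-134870391: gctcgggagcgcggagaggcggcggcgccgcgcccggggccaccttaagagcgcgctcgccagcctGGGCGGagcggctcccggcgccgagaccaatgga
Mdm2 promoter, chr10:117147834-117147859: ccgggcatcgGGGCGTgcgcgcgcgc
Mdm2 intron 1, chr10:117147213-117147238: cagcccagtcCCACCCgtcccggaag
Myc 5′ UTR, chr15:61817081-61817106: gaagcttttcGGGCGTttttttctga
Ccnd3 intron 1, chr17:47645029-47645128: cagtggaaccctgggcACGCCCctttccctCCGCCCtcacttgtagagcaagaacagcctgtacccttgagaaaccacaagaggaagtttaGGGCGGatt
Mdm2 intron 6, chr10:117135849-117135948: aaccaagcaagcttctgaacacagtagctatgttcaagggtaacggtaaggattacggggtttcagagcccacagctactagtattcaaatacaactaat
Ccnd1 upstream, chr7:152169848-152169947: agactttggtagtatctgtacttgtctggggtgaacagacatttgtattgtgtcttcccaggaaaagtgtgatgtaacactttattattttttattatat

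Within 50 bp of the centre, 11 of the 21 peaks held at least 1 CACCC-type word, beside 40.2% of all peaks in the table. Within the whole 400 bp the count was 16 of 21, beside 60% of all peaks. All of these were among the 19 peaks listed for KLF3. Over all 14115 peaks listed for KLF3, the shares were 57.5% within 50 bp and 76.3% within 400 bp. The Ccnd3 intron window above holds 3 matches, on both strands, the most of any of the 21 peaks within 50 bp of the centre. Within 400 bp the Cdk4 promoter peak held more, with 7 matches against 5 at Ccnd3. The Cdkn1a promoter window holds none, although the 400 bp peak around it holds 2. Promoter peaks carry such words often, since 83.1% of all promoter peaks had a match within 50 bp of the centre, and 3 of the 4 G1 promoter peaks did. No match was found in 5 peaks anywhere in 400 bp, which were Ccnd1 at −44068 bp, Cdk6 at −42981 bp and −34517 bp, Myc at −40976 bp and the Mdm2 intron 6 peak. Other words were rarer within 50 bp of the centre. The AP-1 word TGACTCA, or its reverse complement written TGAGTCA, was present in 4 of the 21 peaks (7.70% of all peaks), at Cdk6 −42981 bp and at Mdm2 −10936 bp, −7104 bp and +565 bp. CCAAT was present in 3 (14.6% of all), the ETS word CCGGAAG in 2, both at Mdm2 (2.83% of all), and the E2F word GCGGGAA in 1, at the Myc 5′ UTR (1.42% of all). Over all peaks listed for KLF3, the shares were 10.8% for AP-1, 14% for CCAAT, 4.22% for ETS and 2.09% for E2F.

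**Figure D1:**
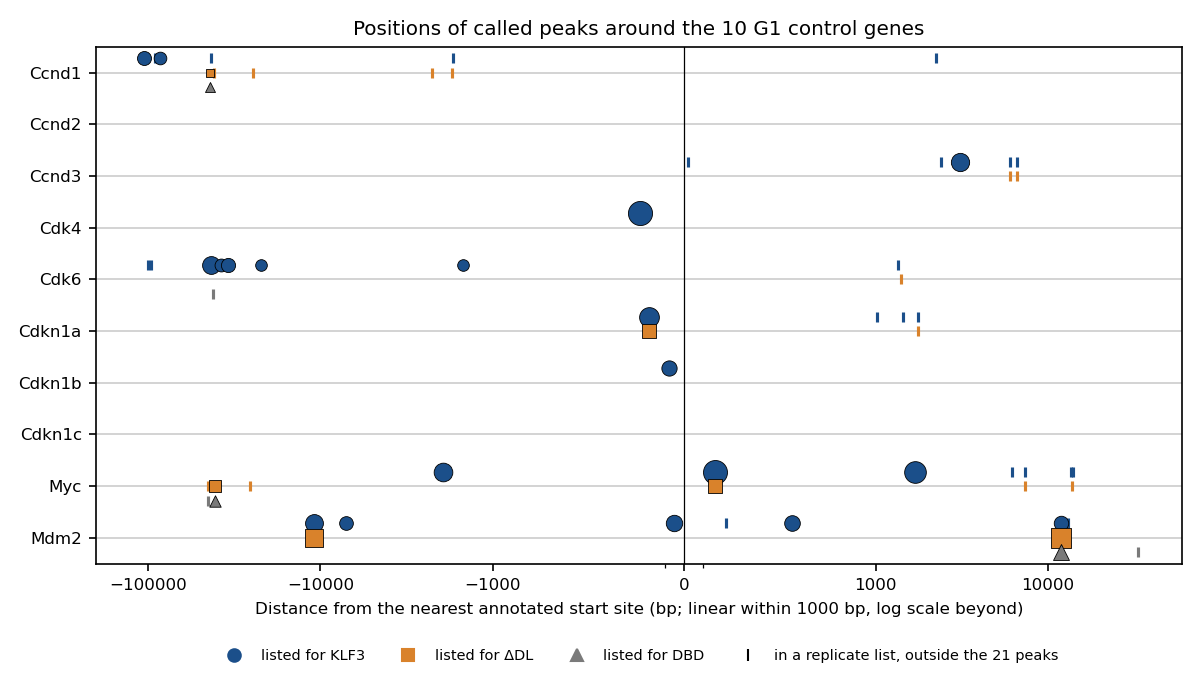
Positions of the called peaks around the 10 G1 control genes, with the distance from the nearest annotated start site on a horizontal axis that is linear within 1000 bp and logarithmic beyond. Circles, squares and triangles are peaks listed for KLF3, ΔDL and DBD, with an area proportional to the height of that construct, and ticks are peaks in a single replicate list that overlap none of the 21 peaks; Ccnd2 and Cdkn1c have no symbol, and the 4 promoter peaks lie at Cdk4, Cdkn1a, Cdkn1b and Mdm2.

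Across the 21 peaks, KLF3 heights ran from 56.5 to 671 with a median of 269, beside a median of 163 over all peaks of the table. ΔDL heights ran from 37.8 to 501 with a median of 180, and DBD heights from 12.8 to 292 with a median of 47.5. ΔDL was below KLF3 at 16 peaks and above it at 5, although at none when heights were set to an equal median over the 2334 peaks listed for all 3 constructs. DBD was below KLF3 at 18 peaks and above it at 3, or at 2 under that scaling. A member peak was called in both KLF3 replicates at 19 of 21 positions (64.1% of all table peaks), in both ΔDL replicates at 7 (55.9% of all) and in both DBD replicates at 3 (22.4% of all). The other 2 peaks were called in KLF3 replicate 1 alone. In ΔDL, 10 peaks were called in a single replicate, which was replicate 2 each time, and 4 in neither, whereas in DBD 18 were called in neither. No share over all peaks was counted for calls in a single replicate or in neither. A missing call sets no upper limit on binding. ΔDL replicate 1, which had the fewest tags, called 7 of the 21 (57.4% of all table peaks), where replicate 2 called 17 (82.8% of all). DBD replicates 1 and 2 each called 3 of the 21 (31% and 27.4% of all).

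**Figure D2:**
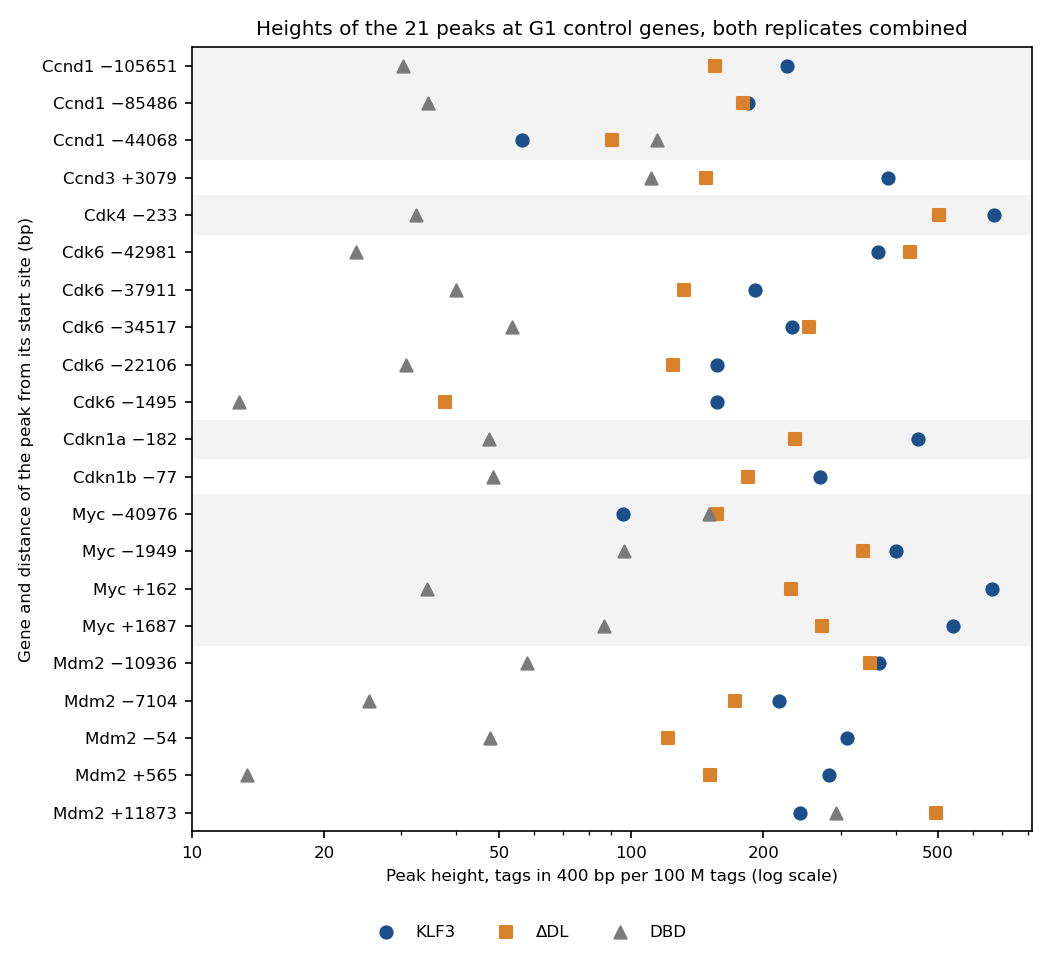
Heights of the 21 peaks in tags within 400 bp per 100 M tags on a log axis, with 1 row for each peak, named by its gene and its distance from the start site in bp, and 1 symbol for each construct (both replicates combined, so no error bar). KLF3 is the rightmost symbol in 16 rows, and DBD is the leftmost in 18 rows.

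Each replicate list was also searched on its own for peaks named for these genes. KLF3 replicates 1 and 2 had 29 and 31 such peaks (30 ± 1.41, SD, n = 2), ΔDL had 8 and 28 (18 ± 14.1, SD, n = 2) and DBD had 5 and 4 (4.50 ± 0.707, SD, n = 2). The lists themselves were unequal in length, as the KLF3 replicates listed 26772 and 23872 peaks in total, the ΔDL replicates 17206 and 32624, and those of DBD 9156 and 8105. As a share of its list, the G1 peaks were 0.108% and 0.130% in KLF3, 0.0465% and 0.0858% in ΔDL, and 0.0546% and 0.0494% in DBD. In number and in share both KLF3 lists were above every other list. Both DBD lists held fewer G1 peaks than either ΔDL list, but their shares fell between those of the ΔDL lists. For the number of peaks, every pair of constructs gave a two-sided exact permutation p of 0.33, which is the smallest that 2 lists against 2 allow. Of the peaks in these lists, 35 overlapped none of the 21 table peaks, with 20 in KLF3 lists, 12 in ΔDL lists and 3 in DBD lists, since the table keeps only peaks found in both replicates of a construct. Over all genes, 8932 and 9090 peaks of the KLF3 lists lay outside the table. For ΔDL the numbers were 4496 and 14256, and for DBD 2276 and 2028, out of the list lengths given above. The 35 peaks are therefore a description and not a trait of these genes.

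Among the D-type cyclins, Ccnd3 had the highest KLF3 peak, in intron 1 at +3079 bp (chr17:47644879-47645279). Its heights were 385 in KLF3, 148 in ΔDL and 111 in DBD. The KLF3 replicates scored 312 and 243 (277 ± 48.2, SD, n = 2), ΔDL replicate 2 scored 97.7, and ΔDL replicate 1 and both DBD replicates had no call there. The ΔDL score thus lay below both KLF3 scores. On the log2 scale ΔDL was lower by a difference of −1.38 (−2.25 to −0.65) and DBD by −1.80 (−2.69 to −1.09). Further Ccnd3 peaks of KLF3 occurred in replicate 2 and not in replicate 1. One lay 21 bp from a start site, with a score of 94 from 17 tags. Those at +6051 bp and +6617 bp overlapped peaks of ΔDL replicate 2.

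Ccnd1, a cyclin gene that growth factor signals induce, had no promoter peak in the table and 3 distant ones. Listed for KLF3 alone were the peaks at −105651 bp (chr7:152231281-152231681) and −85486 bp (chr7:152211116-152211516). The farther one had heights of 226 in KLF3, 155 in ΔDL and 30.3 in DBD, with KLF3 scores of 147 and 133 and a ΔDL replicate 2 score of 87.9. Its ΔDL difference of −0.54 (−1.41 to 0.25) was within counting error, and its DBD difference was −2.90 (−5.09 to −1.72). At −85486 bp KLF3 and ΔDL were nearly equal in height, at 185 and 180, with DBD at 34.5.

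The Ccnd1 peak at −44068 bp (chr7:152169698-152170098) went the other way. Its height was 56.5 in KLF3, 90.5 in ΔDL and 115 in DBD, from 12, 10 and 18 tags, and it was listed for ΔDL and DBD and not for KLF3. The DBD difference of 1.02 was the highest of DBD at any of the 21 peaks, with an interval from −0.01 to 2.31 that includes 0. Replicate scores were 128 in KLF3 replicate 1, 396 and 78.2 in ΔDL, and 128 and 131 in DBD (130 ± 2.33, SD, n = 2). The KLF3 score and the DBD scores overlapped in range, and the ΔDL replicates lay on either side of them. The nearest start site of another protein-coding gene in GENCODE was that of Oraov1, 67857 bp away, so the link of this peak to Ccnd1 is one of position only. Close to Ccnd1, a KLF3 replicate 2 peak at −1708 bp scored 138 and a ΔDL replicate 2 peak at −1733 bp scored 166, but neither had a partner in replicate 1 that overlapped it.

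Cdk4 held the highest KLF3 peak of all 21, in its promoter at −233 bp (chr10:126500226-126500626). The height was 671 in KLF3, 501 in ΔDL and 32.4 in DBD, and 94.7% of all peaks listed for KLF3 were lower than it in KLF3. KLF3 scored 476 and 332 (404 ± 102, SD, n = 2) and ΔDL scored 340 and 234 (287 ± 74.5, SD, n = 2), so the replicates of the constructs overlapped. The ΔDL difference of −0.42 (−0.88 to 0.02) was within counting error, whereas DBD stood 20.7-fold below KLF3, a log2 difference of −4.37 (−6.07 to −3.17) from 5 tags in DBD against 156. DBD had no call in either replicate. The peak is listed for KLF3 alone although both ΔDL replicates called a peak within it, and those 2 ΔDL peaks shared no base with each other.

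Cdk6, the other kinase that D-type cyclins bind, had no promoter peak, and all 5 of its peaks were intergenic and listed for KLF3 alone. The highest lay at −42981 bp (chr5:3301131-3301531), with heights of 365 in KLF3, 430 in ΔDL and 23.6 in DBD. KLF3 scores were 366 and 243, and the ΔDL replicate 2 score of 313 fell between them. The ΔDL difference was 0.24 (−0.31 to 0.75) and the DBD difference −3.95 (−6.57 to −2.67), from only 3 tags in DBD.

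The Cdk6 peak nearest the gene had lower heights in both mutants. At −1495 bp (chr5:3342617-3343017) the heights were 157 in KLF3, 37.8 in ΔDL and 12.8 in DBD, from 36, 4 and 1 tags. The ΔDL difference of −2.05 (−4.14 to −0.71) was the lowest of ΔDL among the 21 peaks, with an interval that overlapped that of the next lowest, at the Myc 5′ UTR, and the DBD difference was −3.61 (−9.97 to −2.06). KLF3 scored 147 and 105 here, and neither ΔDL nor DBD had a call. The intervals of the ΔDL difference at −1495 bp and at −42981 bp did not overlap. Between these 2 peaks lay others at −37911 bp, −34517 bp and −22106 bp, with ΔDL differences of −0.54, 0.13 and −0.33, all within counting error.

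The inhibitor Cdkn1a had a promoter peak at −182 bp (chr17:29230335-29230735), listed for KLF3 and ΔDL. Its height was 449 in KLF3, 236 in ΔDL and 47.5 in DBD. KLF3 scores of 312 and 299 (305 ± 9.12, SD, n = 2) were close together, whereas ΔDL scored 340 from 6 tags in replicate 1 and 137 from 14 tags in replicate 2 (238 ± 144, SD, n = 2). One ΔDL replicate lay above both KLF3 replicates and the other below both. The combined ΔDL height was lower by −0.93 (−1.64 to −0.34) and that of DBD by −3.24 (−4.70 to −2.26). Intron 1 of Cdkn1a held further KLF3 peaks that the table leaves out, as those of the 2 replicates did not overlap. They scored 385 at +1436 bp in replicate 1, and 249 at +1013 bp and 276 at +1768 bp in replicate 2, so that in replicate 1 the intron peak was above the promoter peak.

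Cdkn1b had a single peak, in its promoter at −77 bp (chr6:134870142-134870542), with heights of 269 in KLF3, 185 in ΔDL and 48.5 in DBD. KLF3 scored 220 and 160 (190 ± 42.1, SD, n = 2) and ΔDL replicate 2 scored 117, below both. The ΔDL difference of −0.54 (−1.37 to 0.15) was within counting error and the DBD difference was −2.47 (−3.98 to −1.48). Its mean conservation score of 0.80 was the highest of the 18 G1 peaks that have one, beside a median of 0.220 over promoter peaks. Cdkn1c, an imprinted inhibitor, and Ccnd2 gave no values, which says only that no peak was called under the authors' thresholds.

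At Myc the KLF3 peaks clustered around the gene start. The highest, in the 5′ UTR of exon 1 at +162 bp (chr15:61816858-61817258), had a height of 662 in KLF3, 231 in ΔDL and 34.3 in DBD. KLF3 scored 531 and 514 (523 ± 12.1, SD, n = 2) and ΔDL scored 283 and 176 (230 ± 75.9, SD, n = 2). Both ΔDL scores lay below both KLF3 scores, and DBD had no call. The height differences were −1.52 (−2.18 to −0.94) for ΔDL and −4.27 (−6.05 to −3.15) for DBD. In intron 1 at +1687 bp the KLF3 height was 541 with scores of 348 and 354, and ΔDL at 272 and DBD at 86.8 had no call. The ΔDL difference there was −0.99 (−1.60 to −0.42). GENCODE start sites of Myc lay 6 bp from the centre of this peak and 61 bp from that of the +162 bp peak. Upstream at −1949 bp ΔDL was closer to KLF3, with heights of 338 and 402 and a difference of −0.25 (−0.85 to 0.28).

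The remaining Myc peak, at −40976 bp (chr15:61775720-61776120), was listed for ΔDL and DBD. Its heights were 95.7 in KLF3, 157 in ΔDL and 150 in DBD. KLF3 scored 165 in replicate 1 only, ΔDL scored 340 and 117, and DBD scored 128 and 95.5. The single KLF3 score lay above both DBD scores, opposite to the order of the heights, and the ΔDL scores lay on either side of it. Both height differences, 0.71 (−0.30 to 1.65) for ΔDL and 0.65 (−0.30 to 1.52) for DBD, were within counting error.

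Mdm2 held the peak with the highest ΔDL difference among the 21, and 1 of the 3 peaks with the lowest DBD differences. Its promoter peak at −54 bp (chr10:117147626-117148026) had heights of 311 in KLF3, 121 in ΔDL and 47.8 in DBD, with KLF3 scores of 220 and 155 (187 ± 46.0, SD, n = 2) and a ΔDL replicate 2 score of 97.7, below both. The ΔDL difference was −1.36 (−2.33 to −0.55) and the DBD difference −2.70 (−4.19 to −1.71). A neighbouring peak at +565 bp in intron 1 (chr10:117147007-117147407), the intron that holds the p53-responsive promoter of the gene, had heights of 282, 151 and 13.4 in KLF3, ΔDL and DBD. A GENCODE start site of Mdm2 lay 73 bp from its centre. The DBD difference of −4.40 (−10.81 to −2.95), from 1 tag against 65, was the lowest in value, but it is not told apart from the −4.37 at the Cdk4 promoter and the −4.27 at the Myc 5′ UTR, as tag numbers are good to about 1 tag. Its ΔDL difference was −0.90 (−1.82 to −0.17).

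Upstream of Mdm2, the peak at −10936 bp (chr10:117158508-117158908) had the gene's highest KLF3 height, at 367, with ΔDL at 350 and DBD at 58.1. KLF3 scored 348 and 194 and ΔDL scored 453 and 147, so the ΔDL scores enclosed those of KLF3, and the height difference of −0.07 (−0.65 to 0.48) was within counting error. At −7104 bp the KLF3 height was 217, the ΔDL height 172 and the DBD height 25.3.

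The Mdm2 peak in intron 6 at +11873 bp (chr10:117135699-117136099) was the only one of the 21 listed for all 3 constructs. It was 495 high in ΔDL, 292 in DBD and 242 in KLF3. ΔDL scored 680 and 420 (550 ± 184, SD, n = 2), above both KLF3 scores of 312 and 227 (269 ± 60, SD, n = 2), whereas the DBD scores of 256 and 251 (253 ± 3.75, SD, n = 2) fell between the KLF3 scores. The ΔDL difference of 1.03 (0.47 to 1.59) was the largest rise of ΔDL at these genes, but it became −0.03 with heights set to an equal median over the 2334 peaks listed for all 3 constructs. DBD differed from KLF3 by 0.27 (−0.34 to 0.84), or by −0.15 under that scaling. No CACCC-type word occurs in the 400 bp of this peak, as in the window printed above, and its G+C content of 41.9% was below the median of 43.4% over all intron peaks.

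**Figure D3:**
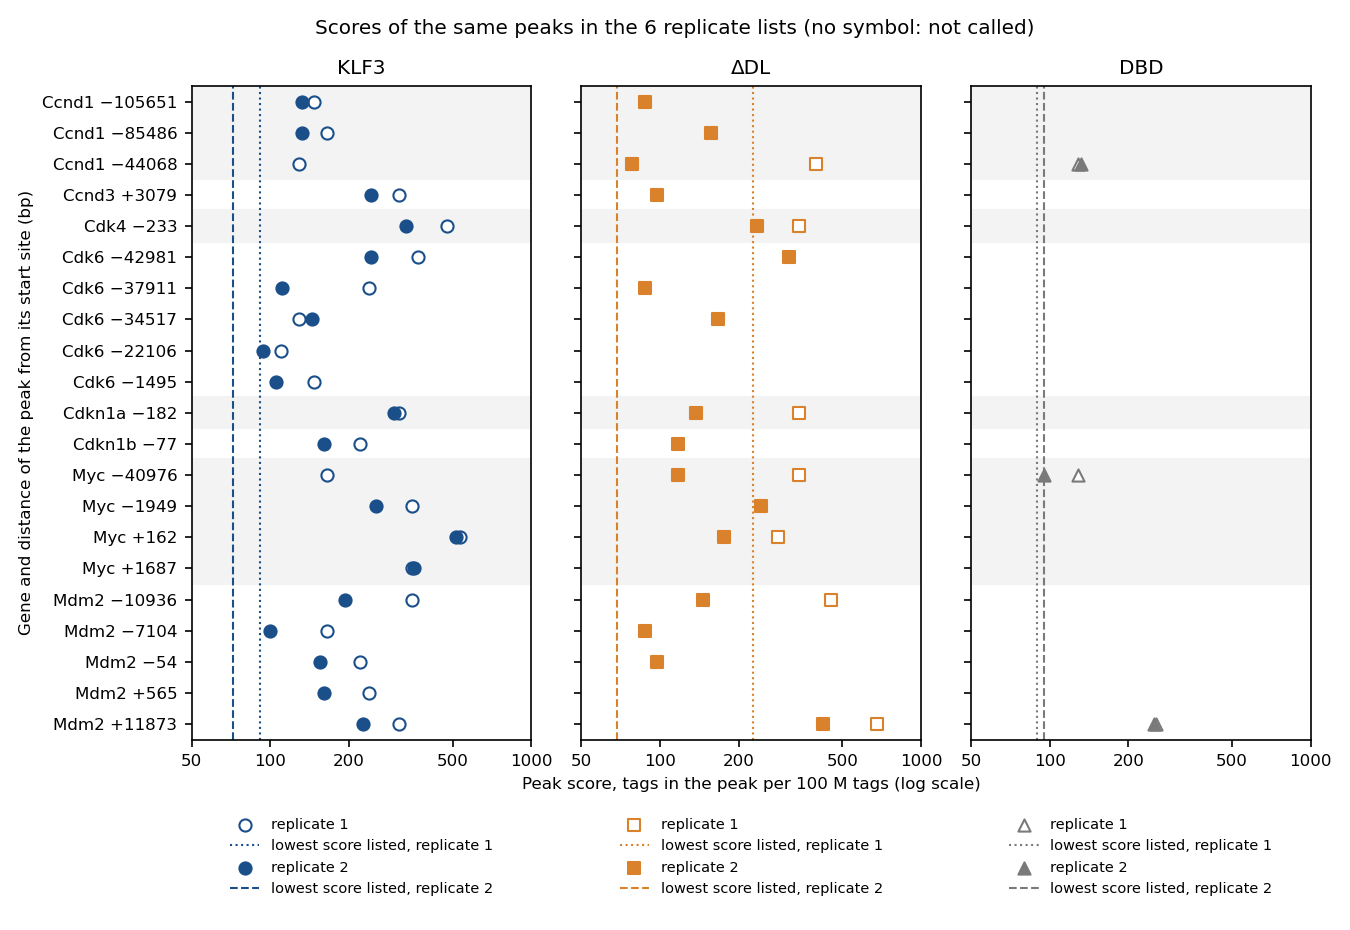
Scores of the 21 peaks in each of the 6 replicate lists, in tags per 100 M tags on a log axis, with open symbols for replicate 1, filled symbols for replicate 2 and no symbol where the peak was not called. Vertical lines mark the lowest score in each list, which is 227 in ΔDL replicate 1 and between 68.4 and 95.5 in the others.

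Calls in all 4 KLF3 and ΔDL replicates were present at 5 of the 21 peaks, so that their scores could be compared with replicate error. Both ΔDL scores lay above both KLF3 scores at 1, the Mdm2 intron 6 peak (27.6% of the 4892 such peaks in the table), and below both at 1, the Myc 5′ UTR peak (7.20% of them). At the other 3, Cdk4, Cdkn1a and Mdm2 −10936 bp, the replicates overlapped. A 2 against 2 comparison cannot go below p = 0.33 in an exact test. ΔDL replicate 1 could show no score below 227, and the part of this floor in the counts was not tested.

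By height, 4 of the 21 peaks were at least 2-fold lower in ΔDL than in KLF3, beside 14.9% of all table peaks, and 1 was at least 2-fold higher, beside 28.9%. The 4 that fell past this limit were Cdk6 −1495 bp, Myc +162 bp, Ccnd3 +3079 bp and Mdm2 −54 bp. They all lay within 10 kb of a start site, as did 11 of the 21 peaks, and no share over all such peaks was counted. The 1 that rose past it was Mdm2 +11873 bp. Since the table holds many peaks listed for ΔDL and not for KLF3, the shares over the 14115 peaks listed for KLF3 are closer to the members, of which 19 are so listed. In that set 23.3% were at least 2-fold lower and 11.0% at least 2-fold higher, against the same 4 and 1 of 19. The median difference of ΔDL over the 19 was −0.54, beside −0.35 over all KLF3-listed peaks. Over the 21 it was −0.42, beside 0.42 over the table. The count of 4 became 16 under the scaling to the 2334 peaks, at which the median height of ΔDL was 1.06 and that of DBD 0.42 above KLF3 on the log2 scale. The shares given before belong to heights without this scaling, which shifts every peak alike, and no share was counted under it. With the scores of replicate 2 alone, a comparison chosen after seeing the data, ΔDL was at least 2-fold lower at 3 and higher at 0 of the 15 peaks called for both constructs (10.6% and 14.4% of all such peaks). With replicate 1 alone the numbers were 0 and 3 of 7 (1.49% and 67.1% of all such peaks). The replicates covered partly different peaks, and ΔDL replicate 1 held no score below 227, which limits the falls it could show. These numbers therefore cannot tell whether the replicates differ in direction. Beyond counting error, ΔDL was below KLF3 at 7 peaks (21.8% of all table peaks) and above it at 1 (32.1% of all).

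At 18 of the 21 peaks the DBD height was 2-fold or more below that of KLF3, beside 52.6% of all peaks, and at 1, Ccnd1 −44068 bp, it was 2-fold or more above, beside 3.27%. With heights set to an equal median over the 2334 peaks these counts were 18 and 0, and with an equal median over all peaks they were 15 and 3. No share over all peaks was counted under these scalings. Without them, 18 of the 19 KLF3-listed peaks were at least 2-fold lower in DBD, beside 79.2%. Listing a peak for KLF3 already favours a high KLF3 height, so this count is a description. All 4 G1 promoter peaks were at least 2-fold lower in DBD, as were 98.5% of all promoter peaks listed for KLF3. The median DBD difference was −2.64 over the 21 peaks, beside −1.45 over the table. Over the 19 it was −2.66, beside −2.54 over all KLF3-listed peaks. The same 18 peaks were below KLF3 beyond counting error (52.8% of all), and 0 were above it (3.75% of all).

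**Figure D4:**
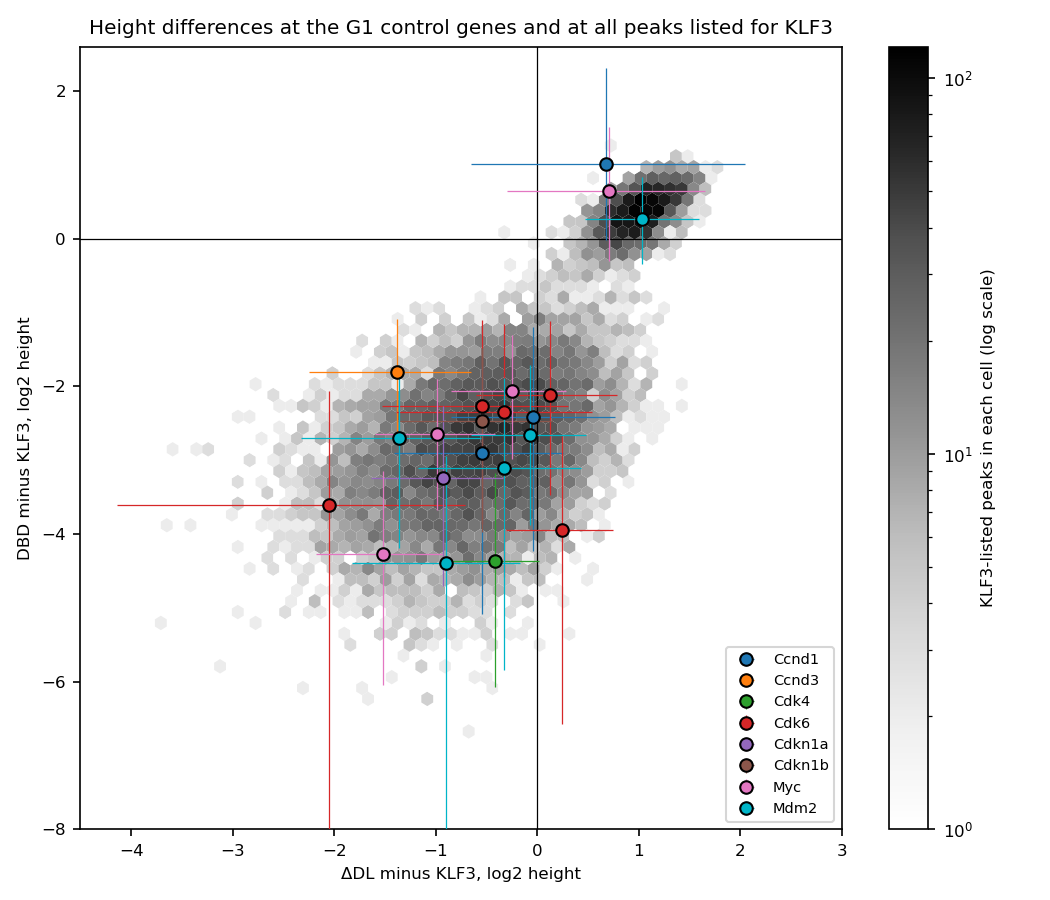
Difference of ΔDL from KLF3 on the horizontal axis and of DBD from KLF3 on the vertical axis, both in log2 height, with the 21 G1 peaks coloured by gene, 95% counting intervals as lines, and the density of the 14115 peaks listed for KLF3 in grey. Most G1 peaks lie in the lower left, and Mdm2 intron 6 lies in the upper right with the 17.1% of KLF3-listed peaks that were above KLF3 in both mutants; Ccnd1 −44068 bp and Myc −40976 bp, not listed for KLF3, lie near it.

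The 3 peaks with DBD above KLF3 were the 3 that were listed for DBD, Ccnd1 −44068 bp, Myc −40976 bp and Mdm2 +11873 bp. They had a G+C content between 37.7% and 41.9%, beside a median of 52.1% over the 21 peaks and of 37.7% over all peaks listed for DBD. In the same range were Cdk6 −34517 bp at 38.4% and Cdk6 −22106 bp at 38.7%, with DBD differences of −2.12 and −2.35. None of the 3 held a CACCC-type word in 400 bp. Cdk6 −42981 bp and −34517 bp held none either, and DBD differed there by −3.95 and −2.12. Of all table peaks without such a word in 400 bp, 40.3% were listed for DBD, against 10.4% of those with one. The 18 other peaks had DBD heights between 12.8 and 111, from 1 to 17 tags.

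The 33 other G1 control genes, such as the E-type cyclins, the INK4 inhibitors, the retinoblastoma family and the E2F factors, gave 50 peaks at 24 genes, and 18 of the 24 (75%) had a promoter peak listed for KLF3. Of all 10750 genes with a peak, 37.9% had one, and among the 8 G1 genes described above 4 did. Of these 50 peaks 46 were listed for KLF3. Among the 50, ΔDL was at least 2-fold lower at 14 (23.3% of all KLF3-listed peaks, 14.9% of all table peaks) and higher at 5 (11.0% and 28.9%). DBD was at least 2-fold lower at 42 (79.2% and 52.6%) and higher at 2 (0.184% and 3.27%). The 50 peaks had median differences of −0.41 for ΔDL and −2.58 for DBD, beside −0.42 and −2.64 over the 21 peaks. Their highest KLF3 peak was at the promoter of Cdc25a, a phosphatase that activates cyclin-dependent kinases, with heights of 849 in KLF3, 815 in ΔDL and 32.9 in DBD. The 30 genes of the S, G2 and M phases gave 22 peaks at 17 genes, and 10 of the 17 (58.8%) had a promoter peak listed for KLF3. Of these 22 peaks 16 were listed for KLF3. Among the 22, ΔDL was at least 2-fold lower at 3 and higher at 5, and DBD lower at 16 and higher at 1. The shares over KLF3-listed and table peaks given above apply here too. Median differences were −0.50 for ΔDL and −2.65 for DBD. The highest KLF3 peak of that list was in intron 1 of Pcna, the sliding clamp of replication, at 838 in KLF3, 488 in ΔDL and 23.6 in DBD.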

How the data were processed

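Peaks of anti-V5 ChIP-seq in Klf3-/- MEFs were used from 6 replicate lists, 3 merged lists and a table of all peaks. Reads of 50 bp were aligned by the authors against mm9 (Bowtie2 2.0.0), and HOMER 4.1 called peaks in each replicate at 5-fold enrichment over input and surroundings and a false discovery rate of 0.001. FastQC 0.10.1 and SAMtools 0.1.18 are also named in the submitters' processing notes. As deposited, a peak score is a signal: the tags of 1 replicate in the peak, scaled to 100 M. The heights are log2 values that the authors counted from both replicates together. The deposited G+C content is a fraction, which the mm9 sequence gave to within 0.003 for all 18373 peaks that have one, and conservation is a deposited score. Heights carry a random part of up to 1.22 tags, as the same peak in a merged list and in the table shows, so tag numbers are good to about 1 tag.

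Members are peaks whose annotated gene is one of the 10. The members and the gene lists were chosen with earlier results of these data known. A peak was called in a replicate where it shared at least 1 bp with a listed peak. Tag totals of the replicates were read from the step of the scores, since all scores were whole multiples of it to within 0.1 tag. Height differences were called at 2-fold, and their intervals are exact conditional (Clopper-Pearson) ones. Medians over peaks are given without an interval, since peaks are not replicates. Numbers of peaks per list were compared by exact permutation, whose p-values measure only the spread between these replicates. Count models were not used, as tags of each replicate are given at called peaks alone. Peaks described in full were the highest KLF3 peak and every promoter peak of a gene, and the largest rise and fall in each mutant; the other peaks named complete the account of the 21. Promoter means 1000 bp before to 100 bp after a RefSeq start site. Sequences and GENCODE start sites are of mm9. Alternatives covered scaling, background, fold limit, peak sets, overlap, single replicates and motif choices. The code was tested on simulated data. Software was scipy 1.17.1, pandas 2.3.3, numpy 2.4.6 and matplotlib 3.10.9 under Python 3.11.15.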

Additional observations from a re-analysis of the deposited data

How the results depend on the processing

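The number of peaks at least 2-fold lower in ΔDL (4) was 16 with an equal median height over peaks listed for all 3 constructs, 7 with one over all peaks, 7 at 1.5-fold and 1 at 4-fold. The number at least 2-fold higher (1) was 0 under both scalings, 3 at 1.5-fold, 0 at 4-fold and 0 within 10 kb of a start site. Shares over all peaks were not counted under these scalings and limits. From the scores of a single replicate, an alternative chosen after seeing the data, these numbers ranged from 0 to 3 (lower) and from 0 to 3 (higher), over the 15 peaks called for both constructs in replicate 2 and the 7 in replicate 1. The median ΔDL difference was −1.48 under the scaling to peaks listed for all 3 constructs, and the ΔDL difference at Mdm2 intron 6 turned to −0.03; this follows from the shift of 1.06. The median DBD difference was −1.48 with an equal median over all peaks, which left 15 peaks at least 2-fold lower in DBD (18) and 3 higher (1), while the scaling to peaks listed for all 3 constructs gave 18 and 0. Of the 21 peaks 11 lay within 10 kb, and all 11 were at least 2-fold lower in DBD. The share over all peaks within 10 kb was not counted. Among all KLF3-listed peaks 79.2% were as low, and among those at promoters 98.5%. The 7 peaks called in both ΔDL replicates were 17 without replicate 1 (82.8% of all table peaks) and 7 without replicate 2 (57.4% of all). Words of the form ACACCC or CCACCC alone were in 4 peaks. A planned overlap of 50% of the table peak could not be met, since replicate peaks were 96 to 142 bp long; 50% of the replicate peak, added later, changed no count. The heights combine both replicates, so no test of them was paired by replicate. From the scores, ΔDL was above KLF3 within both replicates at 1 of the 5 peaks called in all 4 lists (Mdm2 intron 6, 1.13 and 0.89 on the log2 scale), below within both at 2 (Cdk4 promoter, −0.49 and −0.50, and Myc 5′ UTR, −0.91 and −1.55) and of opposite sign at 2 (Cdkn1a promoter, 0.13 and −1.13, and Mdm2 −10936 bp, 0.38 and −0.40). Counting error was widest where tags were few, with a median of 62 tags per peak in KLF3, 21 in ΔDL and 7 in DBD, from 23.3 M, 11.8 M and 16 M tags in all.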

Other observations

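Some sites at the G1 control genes were called once for KLF3 and once for ΔDL and so entered neither merged list. Such overlapping pairs, outside the 21 peaks, occurred at 6 sites, and each ΔDL call came from replicate 2. Over all genes there were 5255 such pairs outside the table, and the ΔDL call came from replicate 2 in 86.7% of them. That list also held most of the ΔDL peaks outside the table, with 14256 against 4496 in replicate 1. At Ccnd1 the pair lay at −1708 bp and −1733 bp, with scores of 138 in KLF3 replicate 2 and 166 in ΔDL replicate 2. At Ccnd3, 2 pairs lay in the gene and at its end, with 105 in KLF3 and 137 in ΔDL at +6051 bp and +6060 bp, and 82.9 and 78.2 at +6617 bp and +6625 bp. In intron 1 of Cdk6, KLF3 replicate 1 scored 128 at +1357 bp and ΔDL replicate 2 scored 107 at +1403 bp. In intron 1 of Cdkn1a, KLF3 replicate 2 scored 276 at +1768 bp and ΔDL replicate 2 scored 87.9 at +1754 bp. Downstream of Myc, KLF3 replicate 1 scored 202 at +7401 bp and ΔDL replicate 2 scored 156 at +7393 bp. These values have no replicate check.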
